A study of Homo sapiens with 6 samples.

Results

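The genes described here are 8 DNA repair genes on which the response of a cell to temozolomide depends: MGMT, the mismatch repair genes MSH3, MSH6 and PMS2, and the base repair genes MPG, APEX1, XRCC1 and PARP1. They were taken by symbol from a table of 58735 genes, and each matched 1 gene of it. LN229, a human glioblastoma cell line, was compared in 2 groups of 3 RNA sequencing libraries: HSD52_OE, in which the long non-coding RNA gene HSD52 is overexpressed, and control, labelled WT. The labels name no drug for either group, so the values are not read as a response to temozolomide. The labels also give no vector or empty-vector state for the control and no separate cultures for the replicates. Each p-value is thus set against a spread between libraries that may be technical in part. Every value is RNA from bulk cells, in which fewer cells of a kind and less RNA per cell cannot be told apart.

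Temozolomide methylates DNA bases. MGMT takes the methyl group from the oxygen of a methylated guanine onto a cysteine of its own and is consumed by the reaction. Where that lesion is left, replication pairs it with thymine and mismatch repair answers the mispair. MSH6 or MSH3 lends the recognition subunit to a MutS complex, with MSH6 reading single mispairs and MSH3 longer loops, and PMS2 carries the nuclease of the MutL complex that acts next. The methylated nitrogens of purines are handled by base excision repair, in which MPG removes the base, APEX1 cuts the abasic site, PARP1 senses the strand break and XRCC1 is the scaffold that gathers the enzymes closing it.

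The libraries held 17777157 to 18917790 counts. HSD52 had 1252, 1336 and 1327 counts in HSD52_OE libraries, against 11, 7 and 12 counts in control libraries. It rose by 6.89 ± 0.15 on the log2 scale (edgeR's quasi-likelihood test, p adjusted by Benjamini-Hochberg = 8.95e-14; ± is the standard error for every log2 fold change here). Levels of the 8 glioma markers ranged widely. NES and VIM had 758 and 1201 CPM in HSD52_OE and 700 and 1369 CPM in control libraries, where CPM is the read count scaled to library size by TMM. EGFR had 25.4 CPM in HSD52_OE and 52.4 CPM in control libraries, and GFAP 7.29 and 4.83 CPM. SOX9 was near 0, with 0.0879 CPM in HSD52_OE and 1.10 CPM in control libraries. Of the 8 glioma markers 1 rose (GFAP) and 3 fell (CD44, SOX9 and EGFR). Over all genes tested 25.0% rose and 25.6% fell. Markers of other cell types were looked for in 4 lists. The 6 leukocyte markers summed to 1.67 to 2.84 CPM in HSD52_OE and 1.17 to 2.16 CPM in control libraries, with CD3E at 0 in all. The 5 endothelial markers summed to 1.30 to 2.04 CPM in HSD52_OE and 1.69 to 2.45 CPM in control libraries. Of 5 epithelial markers CDH1 was at 0 and EPCAM near it, and keratin genes brought the sums to 168 to 181 CPM in HSD52_OE and 118 to 137 CPM in control libraries. The 7 fibroblast markers summed to 49.2 to 51.5 CPM in HSD52_OE and 127 to 207 CPM in control libraries, and all 7 were lower in HSD52_OE. Nuclear-retained transcripts were higher in HSD52_OE, 4 of the 4 tested, with sums of 856 to 1092 CPM in HSD52_OE against 327 to 357 CPM in control libraries. A count was found for 26359 to 26755 genes in HSD52_OE libraries, against 22855 to 23545 genes in control libraries. TMM factors were 1.04 to 1.05 in HSD52_OE and 0.939 to 0.986 in control libraries, so they too differed by group. The part of these differences in the values below was not tested.

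MGMT (ENSG00000170430, chromosome 10, 129467184 to 129768007 on the plus strand, hg38) had 0 counts in each of the 3 HSD52_OE and each of the 3 control libraries. A count of 0 allows up to 3 counts, which is 0.152 to 0.175 CPM in a single library and 0.0272 CPM over the 110286125 counts of all 6; this limit covers counting error only. LN229 is widely used as a line that lacks MGMT. MGMT was among the 2825 of 19951 protein-coding genes in the table (14.2%) that had 0 counts throughout, and it was not tested. The antisense gene inside it, AL157832.2, also had 0 counts in all libraries. The nearest tested gene beyond MGMT, the transcription factor gene EBF3, whose annotated span begins 67276 bases further along the chromosome, was expressed at 79.1 ± 9.97 CPM in HSD52_OE and 38.8 ± 6.73 CPM in control cells (SD, n = 3) and rose by 1.03 ± 0.12 on the log2 scale (edgeR quasi-likelihood adjusted p = 6.48e-06). EBF3 was thus expressed in all 6 libraries. On the other side the nearest tested gene was LINC01163, a non-coding RNA gene 1149458 bases away, with 26, 48 and 33 counts in HSD52_OE libraries and 0, 1 and 3 counts in control libraries.

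Promoter sequences are shown for 3 of the genes because they span the range of levels. MGMT is the member with no counts, PARP1 the one with the most counts and the strongest change, and APEX1 the member with the highest level per kilobase in both groups. Each window runs from 250 bases before to 50 bases after the gene start as RefSeq gives it (GRCh38.p14), 5′ to 3′ on the gene's own strand. Capitals in MGMT and PARP1 mark CpG, the dinucleotide whose methylation in the MGMT promoter is read in the clinic. Capitals in APEX1 mark the E-box word CACGTG. DNA methylation was not measured in these libraries.

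MGMT promoter (chr10:129466991-129467290, plus strand): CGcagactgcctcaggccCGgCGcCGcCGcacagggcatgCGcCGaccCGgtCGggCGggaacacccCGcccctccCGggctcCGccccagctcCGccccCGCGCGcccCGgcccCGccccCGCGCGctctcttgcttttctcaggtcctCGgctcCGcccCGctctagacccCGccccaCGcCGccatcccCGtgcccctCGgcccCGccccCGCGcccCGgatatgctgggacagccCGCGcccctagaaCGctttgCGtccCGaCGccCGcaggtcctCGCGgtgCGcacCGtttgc

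PARP1 promoter (chr1:226408044-226408343, minus strand): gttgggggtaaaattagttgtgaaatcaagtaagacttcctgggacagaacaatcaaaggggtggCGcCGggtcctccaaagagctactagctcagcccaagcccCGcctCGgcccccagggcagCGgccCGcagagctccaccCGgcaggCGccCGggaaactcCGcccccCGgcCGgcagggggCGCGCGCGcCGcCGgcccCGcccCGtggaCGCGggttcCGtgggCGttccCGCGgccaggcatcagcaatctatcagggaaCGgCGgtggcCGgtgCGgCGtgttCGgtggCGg

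APEX1 promoter (chr14:20454976-20455275, plus strand): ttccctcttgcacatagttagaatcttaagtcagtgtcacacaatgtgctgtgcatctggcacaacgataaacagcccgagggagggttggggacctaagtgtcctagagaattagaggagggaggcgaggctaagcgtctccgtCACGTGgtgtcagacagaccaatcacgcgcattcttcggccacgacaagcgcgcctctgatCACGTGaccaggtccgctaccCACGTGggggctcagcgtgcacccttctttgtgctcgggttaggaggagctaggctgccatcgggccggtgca

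The MGMT window held 45 CpG and was 78.7% G or C. Over all 35116 RefSeq windows of this length the median was 14 CpG, and 3.48% of windows held at least 45. The window also held 8 copies of the GC box GGGCGG, counted on both strands, where 0.436% of windows held as many and 45.0% held at least 1. PARP1 had 33 CpG and 2 GC boxes, where 17.2% and 26.1% of windows held at least as many. The part of CpG content in the level of either gene was not tested. All 8 members had a window, and the first window of each held between 19 CpG for APEX1 and 45 for MGMT, above the median of all windows. APEX1 held 3 copies of CACGTG, a word that reads the same on both strands and was found in 7.26% of windows, with 3 or more copies in 0.0940%. MPG held 1 copy and the other members none. These are matches of letters, and no binding was measured.

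**Figure D1:**
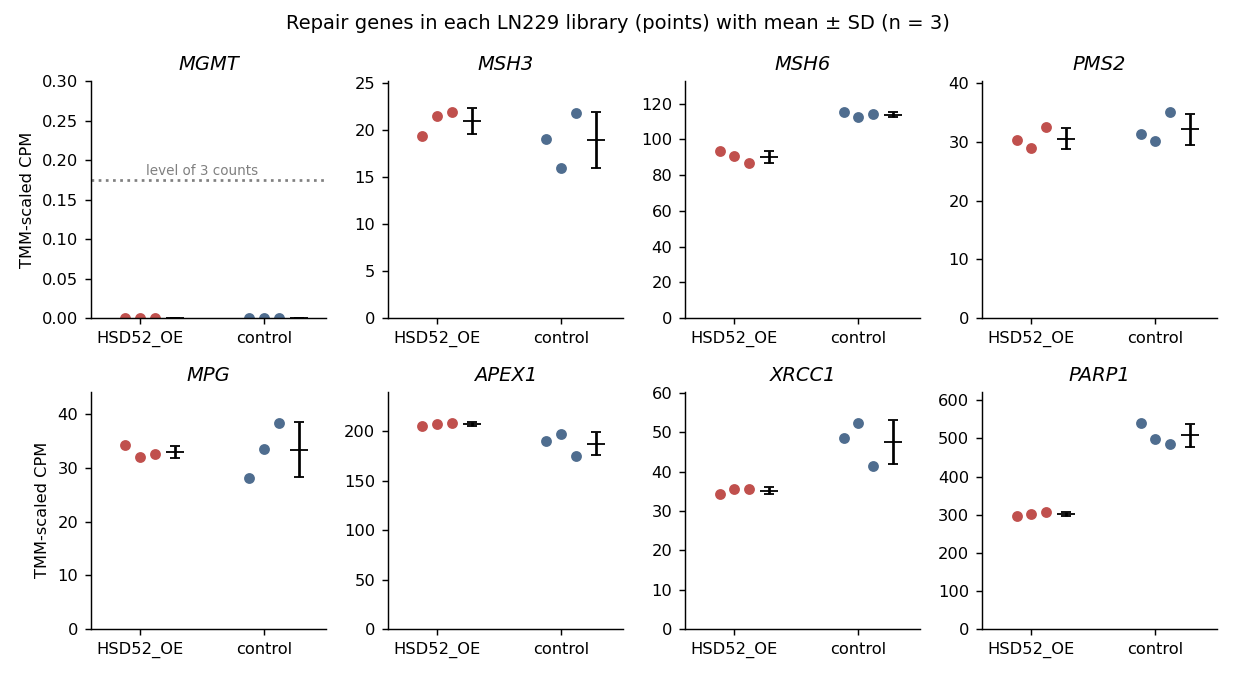
TMM-scaled CPM of the 8 repair genes in each library (points; HSD52_OE at left, control at right), with mean and SD beside them (n = 3), each axis starting at 0. PARP1, XRCC1 and MSH6 show every HSD52_OE library under every control library, APEX1 shows the reverse, and MGMT lies at 0 under the level of 3 counts.

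Of the 8 genes, 7 passed the filter on low counts and were tested, and MGMT was not. In HSD52_OE cells 3 of these 7 fell (MSH6, XRCC1 and PARP1), 0 rose, and 4 did not pass the test (MSH3, PMS2, MPG and APEX1). Over all 16322 genes tested, 25.6% fell, 25.0% rose and 50.6% were called in either direction at an adjusted p under 0.05, and over protein-coding genes alone 30.1% fell, 21.4% rose and 51.4% were called. The 3 of 7 members called stood near these shares. The members' median log2 fold change was -0.07, against 0.01 over all genes tested and -0.06 over protein-coding genes. The groups did not overlap in 4 of the 7 genes (58.9% of all genes tested).

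MSH6 (chromosome 2, 47695530 to 47810101, plus strand), the mismatch-reading subunit, had 93.3, 90.6 and 86.8 CPM in HSD52_OE libraries, against 115, 112 and 114 CPM in control libraries. All 3 HSD52_OE libraries lay under all 3 control libraries. The log2 fold change was -0.34 ± 0.08, with an adjusted p = 0.00211 in edgeR's quasi-likelihood test, and the fold was 0.792 (95% interval 0.706 to 0.888). MSH6 overlaps FBXO11, a ubiquitin ligase gene on the other strand, over 16.2% of its exonic bases, and FBXO11 had 36.9 ± 1.99 CPM in HSD52_OE and 36.7 ± 4.55 CPM in control cells (SD, n = 3).

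MSH3 (chromosome 5, 80654648 to 80876460, plus strand), the subunit for longer loops, had 19.3, 21.5 and 21.9 CPM in HSD52_OE libraries, against 19.0, 15.9 and 21.8 CPM in control libraries. The groups overlapped. The log2 fold change of 0.14 ± 0.12 did not pass (edgeR quasi-likelihood adjusted p = 0.339), and its 95% interval ran from -0.11 to 0.40.

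Set against each other, there were 4.83, 4.22 and 3.97 MSH6 counts for each MSH3 count in HSD52_OE libraries and 6.08, 7.06 and 5.22 in control libraries. This count ratio is not corrected for gene length, and it was lower in every HSD52_OE library than in any control library. The ratio itself was not tested.

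PMS2 (chromosome 7, 5973239 to 6009125, minus strand), the nuclease subunit of MutL, had 30.2, 28.9 and 32.5 CPM in HSD52_OE libraries, against 31.3, 30.1 and 35.1 CPM in control libraries. The groups overlapped, and the log2 fold change of -0.07 ± 0.10 did not pass (edgeR quasi-likelihood adjusted p = 0.550; 95% interval -0.28 to 0.13). PMS2 has many near-identical partial copies, and how the reads they share were counted is not given in the sources used here. The table held 11 such copies by name, of which 9 had counts; they summed to 48.8 to 52.4 CPM in HSD52_OE and 44.8 to 48.7 CPM in control libraries. Of 7 copies tested, 2 rose (PMS2P2 and PMS2P3) and 0 fell. The copies together thus held more counts than PMS2, and the PMS2 value is uncertain for that reason. AIMP2, a scaffold gene of the tRNA synthetase complex that starts 120 bases from PMS2, fell by 0.33 ± 0.09 on the log2 scale (edgeR quasi-likelihood adjusted p = 0.00460).

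PARP1 (chromosome 1, 226360691 to 226408079, minus strand), the break sensor, fell the most of the members. It had 296, 302 and 307 CPM in HSD52_OE libraries, against 542, 499 and 485 CPM in control libraries. The highest HSD52_OE library lay far under the lowest control library. PARP1 fell by 0.75 ± 0.09 on the log2 scale (edgeR quasi-likelihood adjusted p = 5.42e-06), a fold of 0.593 with a 95% interval of 0.522 to 0.674, and 6.98% of all genes tested lay at or under it. PARP1 shares no exonic base with another annotated gene.

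XRCC1 (chromosome 19, 43543040 to 43580473, minus strand), the scaffold, had 34.3, 35.7 and 35.5 CPM in HSD52_OE libraries, against 48.5, 52.4 and 41.5 CPM in control libraries. The groups did not overlap, although control replicate 3 was closer to HSD52_OE than the other control libraries were. XRCC1 fell by 0.43 ± 0.10 on the log2 scale (edgeR quasi-likelihood adjusted p = 0.00186), a fold of 0.741 (95% interval 0.641 to 0.857). The annotated genes L34079.1, L34079.2 and L34079.3 together cover 24.0% of the exonic bases of XRCC1, and each had 0 counts in all libraries. How reads on the shared bases were counted is not given, so the counts of these genes and of XRCC1 may leave such reads out.

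APEX1 (chromosome 14, 20455191 to 20457772, plus strand), the abasic site nuclease, had 205, 208 and 209 CPM in HSD52_OE libraries, against 191, 198 and 175 CPM in control libraries. Every HSD52_OE library lay above every control library, yet the log2 fold change of 0.14 ± 0.08 did not pass (edgeR quasi-likelihood adjusted p = 0.154; 95% interval -0.03 to 0.32). It passed with library totals in place of TMM (log2 fold change 0.27, edgeR adjusted p = 0.00868) and with protein-coding genes alone (0.20, edgeR adjusted p = 0.0454). OSGEP, a tRNA modification gene that starts 86 bases away on the other strand, rose by 0.48 ± 0.12 on the log2 scale, at 23.3 ± 1.43 CPM in HSD52_OE and 16.7 ± 2.19 CPM in control cells (SD, n = 3; edgeR quasi-likelihood adjusted p = 0.00279).

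MPG (chromosome 16, 77007 to 85853, plus strand), the glycosylase for methylated purines, had 34.3, 32.1 and 32.6 CPM in HSD52_OE libraries, against 28.2, 33.5 and 38.5 CPM in control libraries. The HSD52_OE libraries lay inside the range of the control libraries. Its log2 fold change was -0.02 ± 0.11 (edgeR quasi-likelihood adjusted p = 0.917; 95% interval -0.25 to 0.22), and the sign changed with the setting. The genes on either side of MPG did change. RHBDF1, an inactive rhomboid protease gene 652 bases away, had 70.6 ± 0.189 CPM in HSD52_OE and 47.0 ± 6.0 CPM in control cells, and LUC7L, a splicing factor gene, had 32.2 ± 3.26 CPM in HSD52_OE and 20.7 ± 0.776 CPM in control cells (SD, n = 3). They rose by 0.59 ± 0.10 and by 0.64 ± 0.10 on the log2 scale (edgeR quasi-likelihood adjusted p = 0.000134 and 0.000129). NPRL3, which overlaps 27.3% of the exonic bases of MPG, had a log2 fold change of 0.03 ± 0.09 (edgeR adjusted p = 0.791).

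**Figure D2:**
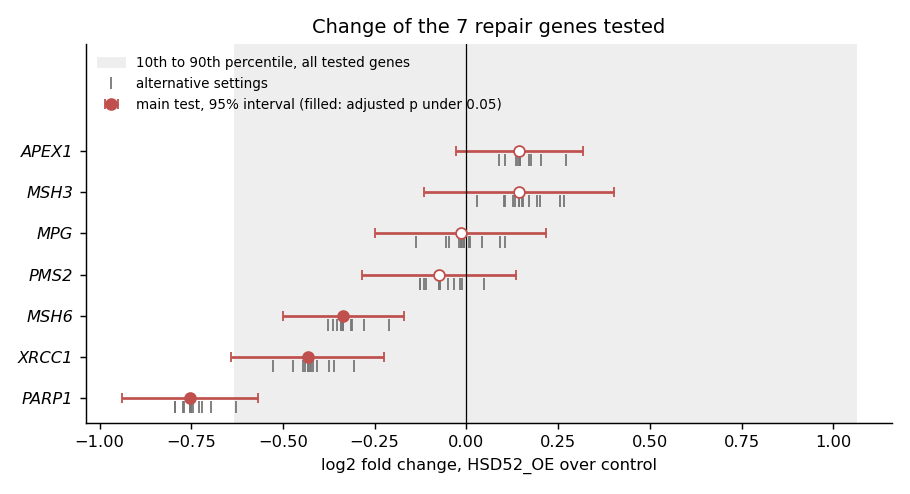
Log2 fold change of the 7 genes tested (HSD52_OE over control; points with 95% intervals, filled where the adjusted p is under 0.05), the values under 14 alternative settings (ticks) and the 10th to 90th percentile of all tested genes (grey band). PARP1 at -0.75, XRCC1 at -0.43 and MSH6 at -0.34 lie under 0 in every setting, while the intervals of the other 4 genes span 0.

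Levels of the genes were compared per kilobase of exonic length, as TMM-scaled CPM divided by length. In HSD52_OE cells the order was APEX1 (110), PARP1 (42.1), MPG (19.9), XRCC1 (10.2), MSH6 (8.21), PMS2 (7.75) and MSH3 (4.44). In control cells it was the same, with 99.5, 70.9, 20.1, 13.7, 10.4, 8.17 and 4.02. Each neighbouring pair was separated over the libraries of a group, except MSH6 and PMS2 in HSD52_OE, which overlapped. The length of each gene, 10993 bases for MSH6, counts every annotated exon and may understate its level per kilobase of the transcript in use. The order could differ with the lengths of those transcripts, which separation over libraries does not cover.

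Each member was set among the tested genes within 1 Mb of it. Near PARP1 8 of 17 genes were lower and 0 higher, and near PMS2 17 of 31 were lower and 4 higher, against 25.6% lower and 25.0% higher over all genes. Near XRCC1 2 of 39 were lower and 6 higher, near MSH6 3 of 13 were lower and 1 higher, and near APEX1 4 of 20 were lower and 5 higher. Near MPG 8 of 44 were lower and 12 higher, and near MSH3 1 of 16 was lower and 5 were higher. MGMT had only 3 tested genes in this window, of which 2 were higher. Several genes that overlap a member or stand next to it did not pass: FAM151B and RASGRF2 beside MSH3, AC079250.1 and AC079807.1 beside MSH6, CCZ1 beside PMS2, PIP4P1 and PNP beside APEX1, and ZNF575 and IRGQ beside XRCC1. Of the genes beside PARP1, LIN9, a regulator of cell cycle genes, had a log2 fold change of 0.06 ± 0.10 (edgeR adjusted p = 0.667), and ITPKB, an inositol phosphate kinase gene, fell by 0.42 ± 0.09 on the log2 scale (edgeR quasi-likelihood adjusted p = 0.00163).

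**Figure D3:**
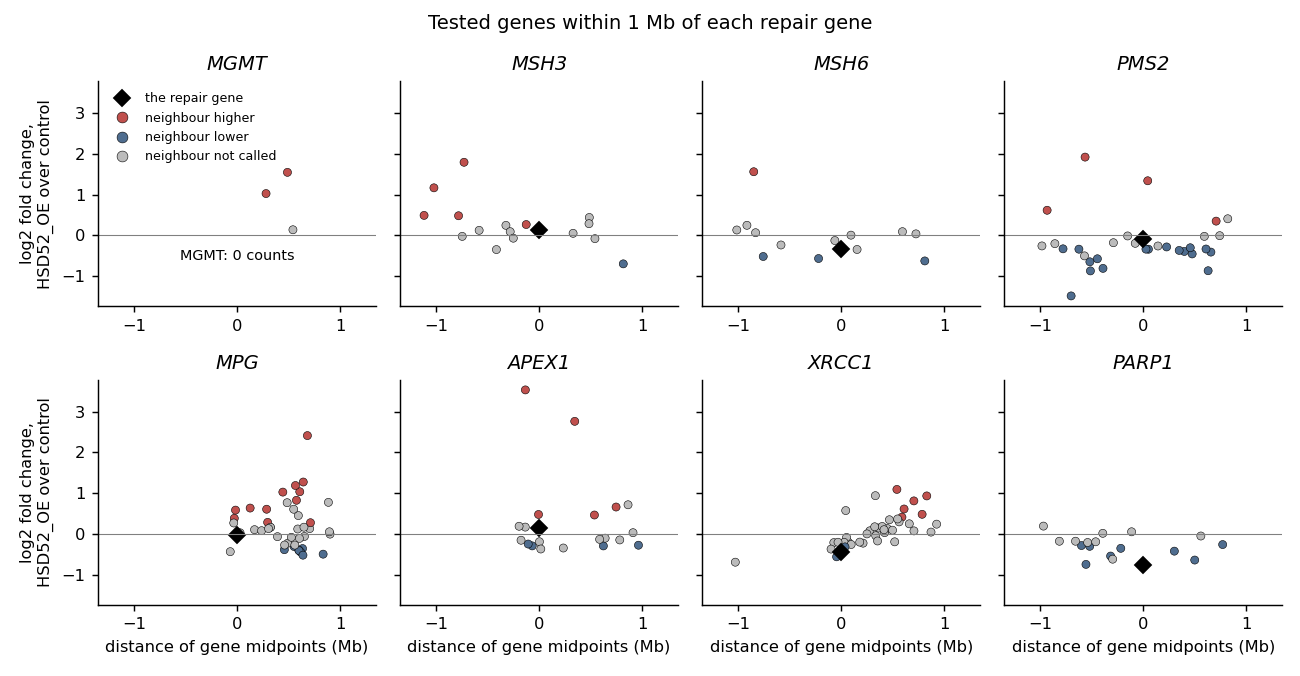
Log2 fold change (HSD52_OE over control) of the tested genes within 1 Mb of each repair gene, by distance between gene midpoints in Mb; the black diamond is the repair gene. Near PARP1, 8 of 17 neighbours are lower and 0 higher, while near MGMT 3 genes were tested and MGMT itself has no counts.

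The partners of the members were described by lists, whose counts stand beside 25.0% higher, 25.6% lower and 50.6% called in either direction over all genes tested. Of 19 other mismatch repair genes 18 were tested; 1 rose and 8 fell, so that 9 of 18 were called, near the 50.6% of all genes. Their median log2 fold change was -0.19, against 0.01 over all genes. POLD2, a subunit of the polymerase that refills the gap, had 122 ± 5.09 CPM in HSD52_OE and 207 ± 15.2 CPM in control cells, and fell by 0.76 ± 0.08 on the log2 scale (edgeR adjusted p = 3.94e-06). PCNA, the sliding clamp, had 232 ± 3.48 CPM in HSD52_OE and 354 ± 21.3 CPM in control cells (SD, n = 3), and fell by 0.61 ± 0.08 on that scale (edgeR adjusted p = 3.09e-05). EXO1, the exonuclease of the pathway, and RPA1, which coats single strands, fell by 0.31 ± 0.09 and by 0.30 ± 0.09 (edgeR adjusted p = 0.00779 and 0.00873). MCM9, a helicase gene tied to mismatch repair, was the gene of this list that rose. The count rests on the scaling. With library totals 3 rose and 2 fell, POLD2 and PCNA among the lower, and EXO1 and RPA1 no longer passed (edgeR adjusted p = 0.0965 and 0.0963).

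Of 19 other base excision repair genes tested, 2 rose and 5 fell (5 and 3 with library totals), and their median was -0.03. The glycosylases moved in both directions. UNG, which removes uracil, had 45.7 ± 2.56 CPM in HSD52_OE and 69.5 ± 6.26 CPM in control cells and fell by 0.61 ± 0.09 on the log2 scale (edgeR adjusted p = 6.49e-05). TDG, the thymine glycosylase, had 59.3 ± 2.80 CPM in HSD52_OE and 43.4 ± 1.46 CPM in control cells and rose by 0.45 ± 0.08 (edgeR adjusted p = 0.000408). NEIL1, which removes oxidised bases, had 11.4 ± 0.880 CPM in HSD52_OE and 5.41 ± 1.59 CPM in control cells and rose by 1.08 ± 0.18 (edgeR adjusted p = 0.000179; SD, n = 3). LIG3, the ligase held by XRCC1, fell by 0.45 ± 0.09 (edgeR adjusted p = 0.000516). POLB, the gap-filling polymerase of the pathway, had a log2 fold change of 0.05 ± 0.12 and did not pass (edgeR adjusted p = 0.722); it was named after its value was seen.

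Among 9 genes of ADP-ribose metabolism tested, 1 rose and 2 fell (1 and 1 with library totals). PARP2, the closest relative of PARP1 in break sensing, had 30.2 ± 1.19 CPM in HSD52_OE and 35.7 ± 2.69 CPM in control cells and fell by 0.24 ± 0.10 on the log2 scale (edgeR adjusted p = 0.0441, and 0.334 with library totals). ADPRHL2, which takes the last ADP-ribose off serine, fell by 0.48 ± 0.11 and OARD1, which takes it off acidic residues, rose by 0.49 ± 0.10 (edgeR adjusted p = 0.00142 and 0.00116). Of 6 genes for direct reversal of alkylated bases by AlkB enzymes, 2 rose and 0 fell by both scalings. ALKBH3, a demethylase, rose by 0.32 ± 0.12 and ASCC3, the helicase that works with it, by 0.58 ± 0.10 on the log2 scale (edgeR adjusted p = 0.0325 and 0.000197).

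Of 14 ATR checkpoint genes, which relay stalled replication, 2 rose and 3 fell (3 and 0 with library totals). WEE1, the kinase that holds mitotic entry, had 80.8 ± 14 CPM in HSD52_OE and 45.0 ± 0.658 CPM in control cells and rose by 0.84 ± 0.11 on the log2 scale, and ATR itself rose by 0.39 ± 0.10 (edgeR adjusted p = 1.91e-05 and 0.00437). RAD9A, of the checkpoint clamp, and CDC25A, a phosphatase removed by the checkpoint, fell by 0.39 ± 0.12 and by 0.26 ± 0.10 (edgeR adjusted p = 0.00977 and 0.0369; 0.0594 and 0.260 with library totals). Replication genes of G1/S, with which PCNA, EXO1 and MSH6 are commonly transcribed, were lower: of 15, 1 rose and 10 fell, with a median of -0.48 (2 and 9 with library totals). MCM6, of the replicative helicase, had 151 ± 3.02 CPM in HSD52_OE and 247 ± 4.15 CPM in control cells (SD, n = 3), and fell by 0.71 ± 0.08 on the log2 scale (edgeR adjusted p = 3.86e-06). E2F1, a transcription factor of G1/S genes, CDT1, which loads the helicase, and SLBP, which binds histone mRNA, fell by 0.87, by 0.86 and by 0.76 (edgeR adjusted p = 6.69e-06, 6.52e-06 and 6.92e-06). The part of the cell cycle in the lower MSH6, XRCC1 and PARP1 was not tested.

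**Figure D4:**
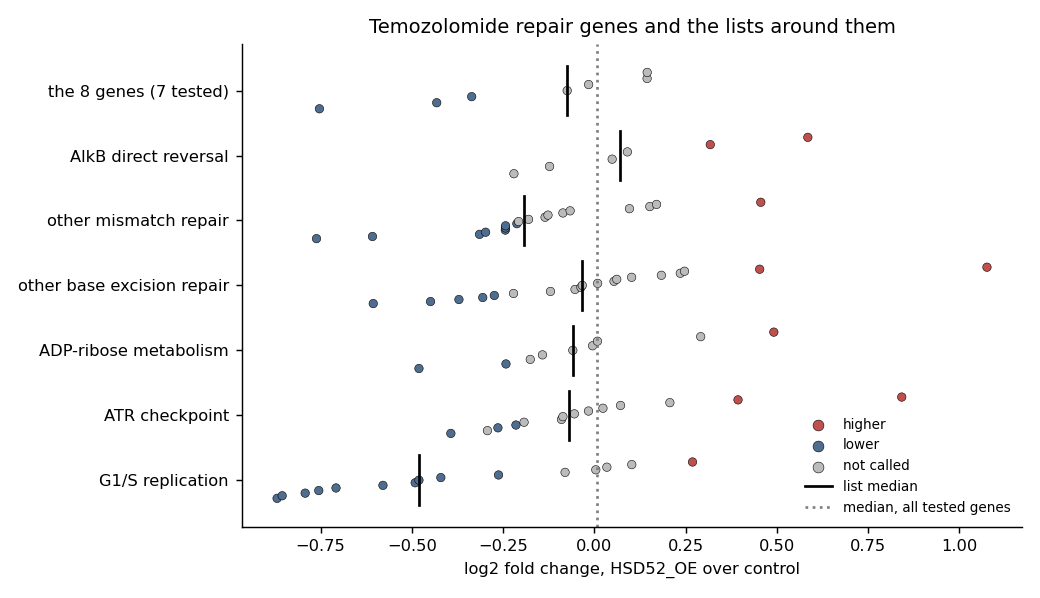
Log2 fold change (HSD52_OE over control) of each tested gene in the set of 8 and in 6 lists around it, coloured by call, with list medians (black bars) and the median of all tested genes (dotted line). The G1/S list lies lowest, with a median of -0.48, and the AlkB list has 2 genes higher and 0 lower, while the 8 genes have 0 higher and 3 lower.

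The genes whose profile over the 6 libraries was nearest to that of a member were found among 10868 protein-coding genes by the root mean square difference of centred log2 CPM. Nearest to PARP1 were HIVEP1, TKT and HDLBP, at 0.02, 0.02 and 0.03, and the genes nearest to XRCC1 included MCM5 and PSMC5, at 0.01 and 0.02. MSH6 was nearest to RHOJ, TBC1D8 and SFXN3, at 0.02, 0.02 and 0.03. MCM5 is a subunit of the replicative helicase, and it had 187 CPM in HSD52_OE and 250.3 CPM in control cells. APEX1 was nearest to ELAC2, KEAP1 and RBM4B, MSH3 to SLC2A13, AP3M2 and SHOC2, and PMS2 to PRKACB, CDK5 and RNF34, all within 0.05. Those nearest to MPG included AK6 and ATP6V1E2, also within 0.05.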

How the data were processed

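RNA from 6 LN229 libraries, 3 HSD52_OE and 3 control, was sequenced after poly-T selection, per the labels' protocols. The authors deposited a table of raw counts for each gene, not normalized. Per the submitters' processing notes, CASAVA, HISAT2 2.0.5 and featureCounts 1.5.0-p3 were used with hg38. The annotation release is not given in the sources used here, nor is a strand setting. How reads on exonic bases shared by overlapping genes were counted is thus not known. The coordinates of all 58735 genes equal those of GENCODE 29, which was used for exon overlaps.

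Genes were filtered with filterByExpr, scaled by TMM and tested across the whole table with edgeR's 2-sided quasi-likelihood test (robust fit, in R 4.3.3 with edgeR 4.0.16 and limma 3.58.1) on group alone, with Benjamini-Hochberg adjustment over 16322 genes and a threshold of 0.05. The standard error is the log2 fold change divided by the root of its F statistic. The fit was tested on simulated counts. Libraries of a group differed by more than sampling noise, with a chi-square per degree of freedom of 2.23 to 3.51 between HSD52_OE pairs and 15.1 to 18.6 between control pairs.

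The members, lists and naming rule were chosen with earlier results of these data known. The rule named the members, up to 4 called genes with the smallest p in each list, overlapping and adjacent genes, and the 3 nearest profiles of each member among genes with a mean of at least 5 CPM; some genes it names are not reported here. Any further gene was picked with its values in view. The alternatives were RLE factors, library totals, 2 other filters, DESeq2 1.42.0, limma-voom, a replicate block, protein-coding genes alone and each library left out. Promoters came from RefSeq.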

Additional observations from a re-analysis of the deposited data

How the results depend on the processing

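MSH6, XRCC1 and PARP1 kept their direction and stayed under an adjusted p of 0.05 in all 14 alternatives, with log2 fold changes of -0.38 to -0.21, -0.53 to -0.31 and -0.79 to -0.63. The number of members called lower was 3 in every alternative. The number called higher was 0, and 1 (APEX1) with library totals and with protein-coding genes alone. MSH3 and PMS2 passed in none of the alternatives, with adjusted p from 0.0790 to 0.849 and from 0.297 to 0.913. MPG had the same sign in 9 of 14 alternatives and PMS2 in 13, and neither passed in any. With library totals the median over all genes shifted by 0.12 on the log2 scale. There were then 5337 genes called higher and 2933 called lower, against 4086 and 4173 with TMM.

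With the replicate number as a block, 4210 genes were higher and 4226 lower, and no member's call changed. Deviations of libraries with the same number correlated at 0.03 to 0.04, and those of libraries with different numbers at -0.02 to -0.01. The labels do not say that the numbers pair libraries, so the main test used no block. Leaving out each library in turn gave 3373 to 4303 higher and 3313 to 4529 lower genes, and 0 higher and 3 lower members each time. At this depth MGMT could not be told from 0 under 0.152 to 0.175 CPM in a library.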
